A study of Homo sapiens with 10 samples.

Results

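The gene MYC and the gene desert around it were examined in peak lists from chromatin immunoprecipitation sequencing (ChIP-seq) of 5 transcription factors in MCF-10A-ER-Src cells. These are human mammary epithelial cells of the established line MCF-10A that carry v-Src, a viral tyrosine kinase oncoprotein, joined to the part of the estrogen receptor that binds its ligand, and 4-hydroxy-tamoxifen switches the kinase on and starts transformation. All groups carry this fusion, and they differ in the factor immunoprecipitated (FOS, JUN, JUNB, NFKB1 or STAT3) and in the state, non-transformed or transformed. The labels give 1 µM tamoxifen and 12 h for the transformed state, and the library names written inside the lists give 36 h in ethanol for the non-transformed state and 12 h in tamoxifen for the transformed state. Each factor and state has 1 library, so nothing here could be checked against a replicate, and no difference between states was tested.

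The members are all peaks with a summit on chromosome 8 between 128200000 and 129300000 (build hg19), a stretch of 1.1 Mb that holds MYC at 128748315 to 128753680 on the plus strand. Of the 879550 peaks in the 10 lists, 905 lay there, and the rule used position only. By factor, non-transformed and transformed cells had 116 and 151 FOS peaks, 78 and 120 JUN peaks, 78 and 106 JUNB peaks, 22 and 85 NFKB1 peaks, and 59 and 90 STAT3 peaks.

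MYC encodes a transcription factor that drives cell growth and division and is transcribed at high levels in many tumors. It lies among long stretches with few protein-coding genes, and in several tissues distant enhancers in these stretches contact its promoter. RefSeq (assembly GRCh38.p14, used here only for the order of genes) places the non-coding genes PCAT1, CCAT1 and CASC8 and the retrogene POU5F1B upstream of MYC, and the long non-coding RNA gene PVT1, host of several microRNAs, downstream of it. FOS, JUN and JUNB are AP-1 proteins, which bind DNA as dimers at a common motif. NFKB1 is a subunit of NF-κB, and STAT3 is activated by cytokine receptors and by Src family kinases. NF-κB and STAT3 both carry inflammatory signals. Since the reference at hand is of another build than the lists, sites are given by their distance from the MYC start, and none was assigned to PVT1 or to another gene of the desert.

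The libraries held 4837474 to 22082403 reads after the authors' removal of duplicates. NFKB1 had the shallowest library, at 4837474 reads for the non-transformed state, and 9674390 for the transformed state. STAT3 had 10929003 and 8967267 reads, respectively, so that its transformed library was the shallower of the pair. The non-transformed STAT3 and JUNB libraries kept 53.3 and 50.1% of their reads after the removal of duplicates. The other libraries kept 68.9 to 87.0%, and the part of this difference in the state comparisons was not tested. Pileup below is how many extended reads covered the summit. In non-transformed and transformed libraries, respectively, the fragment length was 150 and 119 bp for STAT3 and 135 and 120 bp for NFKB1. For JUN it was 129 and 120 bp, for FOS 120 and 114 bp, and for JUNB 123 and 129 bp. The ratios of pileup below are not scaled for this length, and its part in them was not tested. Fold enrichment is the pileup over the local background estimated by MACS, with 1 read added to each. The median background in the region was 0.444 reads for NFKB1 in non-transformed and 2.19 for FOS in transformed cells. The added read therefore lowers fold enrichment more in a shallow library, and comparisons of fold enrichment between libraries also carry their depth. Because the lists name only peaks that passed the caller, a factor without a peak at a site has no value there, and at a given depth weak binding was not detectable.

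**Figure D1:**
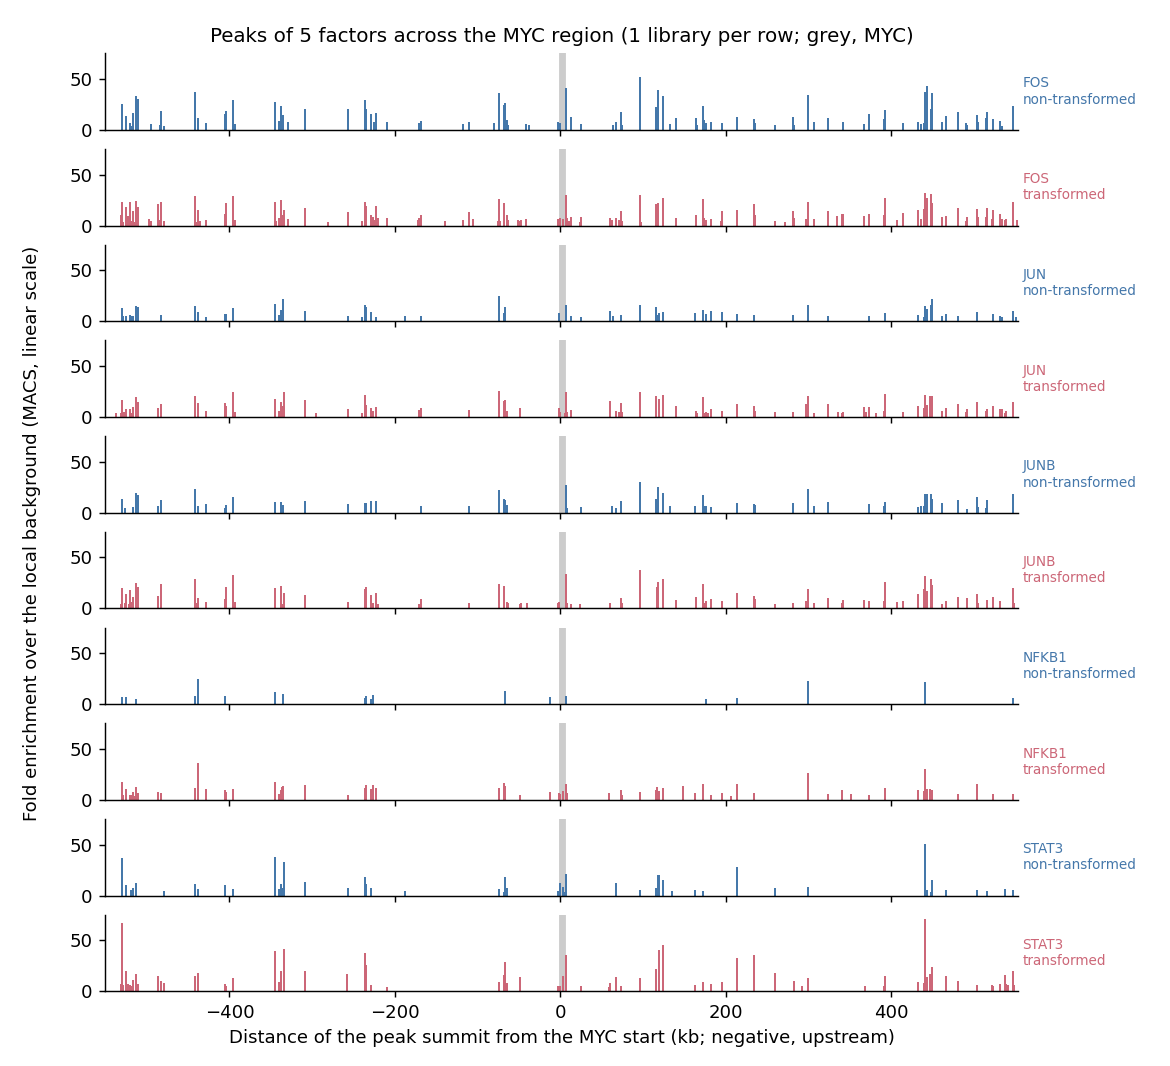
Peaks of the 10 libraries, 1 per row, by distance of the summit from the MYC start (kb, horizontal) and MACS fold enrichment (vertical, linear, same scale in all rows), with MYC in grey. The sites 441 kb and 7.11 kb downstream and 530 kb upstream have a peak in every row, and NFKB1 had 22 peaks in the non-transformed and 85 in the transformed list.

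The peak nearest to MYC that all 10 lists shared lay 7.11 kb downstream of its start, 1.74 kb past the end of the gene (chr8:128755256-128755591). The 10 summits lay within 35 bp. In non-transformed and transformed cells, respectively, STAT3 had fold enrichments of 21.6 and 35.5, NFKB1 8.27 and 15.98, FOS 40.8 and 29.6, JUN 15.9 and 25.0, and JUNB 27.1 and 34.2. It was lower in transformed cells for FOS and higher for the other factors.

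The same site was compared by normalised pileup, the pileup per 1000000 filtered reads, which is the scale used below for differences between states, with an exact 95% interval of the ratio that covers the counting of reads and no variation between cultures. STAT3 went from 47 to 75 reads, or from 4.30 to 8.36 in normalised pileup, a ratio of 1.94 (1.33 to 2.86). JUN went from 38 to 70 reads, a ratio of 1.58 (1.05 to 2.41). FOS went from 114 to 97 reads, a ratio of 0.717 (0.542 to 0.949). The intervals of JUNB (1.07, 0.739 to 1.56) and NFKB1 (1.36, 0.664 to 3.02, from 11 and 30 reads) included 1.

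At the MYC start itself only STAT3 had peaks. The summit lay 0.121 kb into the gene in non-transformed and 0.080 kb in transformed cells, and fold enrichment was 12.2 with 26 reads and 5.14 with 10 reads, respectively. The ratio of normalised pileup was 0.469 (0.202 to 1.00), in the opposite direction to STAT3 at the downstream site. A second STAT3 position, 3.65 kb into the gene, went the other way, from 18 reads and a fold enrichment of 8.56 to 32 reads and 15.4 (ratio 2.17, 1.18 to 4.10), with the summits 1 bp apart. FOS (fold enrichment 6.05) and NFKB1 (8.76) had peaks at that position in transformed cells and none in non-transformed cells.

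Within 10 kb on either side of the gene there were 14 sites, where a site is a run of overlapping summit windows of 150 bp on each side, merged over the 10 lists. Apart from the shared downstream site, none exceeded a fold enrichment of 15.4. Upstream of the start, FOS peaks 0.652 and 0.634 kb away had fold enrichments of 7.11 and 7.58 in non-transformed and transformed cells. At 0.706 kb upstream, STAT3 accompanied FOS in non-transformed cells, and JUN (4.59) and NFKB1 (6.20) did so in transformed cells. At 1.88 kb upstream, FOS and JUN alone had peaks in non-transformed cells, and all 5 factors had them in transformed cells, with fold enrichments from 5.61 for STAT3 to 9.17 for JUN. JUN, JUNB and STAT3 had peaks 1.31 kb upstream in transformed cells (4.33 to 5.64), where no list had one in non-transformed cells. FOS and STAT3 in both states, and JUNB in transformed cells, had peaks 2.75 kb upstream.

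Past the gene, weaker sites flanked the shared one. At 6.58 kb the 3 AP-1 proteins had peaks in non-transformed cells, whereas JUNB and NFKB1 did in transformed cells. FOS and JUN peaks of transformed cells at the shared site were 951 and 967 bp long, against 410 and 489 bp in non-transformed cells, and reached over the 6.58 kb site. At 7.53 kb JUNB had a peak in both states, and FOS, JUN and NFKB1 joined it in transformed cells (4.58 to 7.55). At 12.8 kb FOS (12.4 and 8.77) and JUN (5.30 and 6.69) had peaks in both states and JUNB in transformed cells. The remaining 4 sites each came from 1 list and had fold enrichments of 4.06 to 4.84. The nearest NFKB1 peak to the start lay 7.10 kb away in non-transformed and 0.711 kb away in transformed cells, and the nearest JUNB peak lay 6.58 and 1.28 kb away. For JUN these distances were 1.93 and 0.706 kb.

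**Figure D2:**
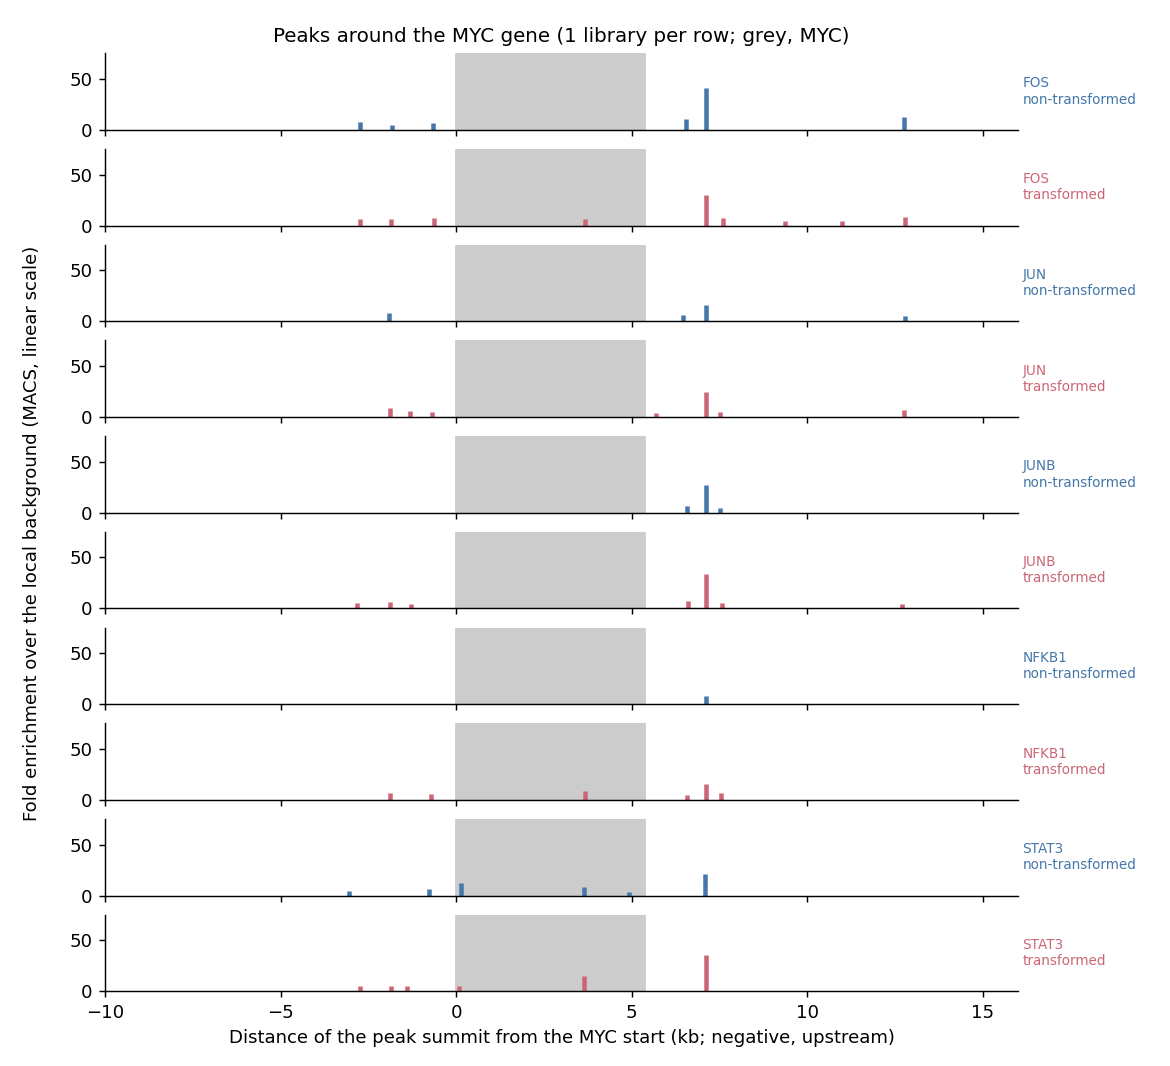
Peaks from 10 kb before to 16 kb after the MYC start, 1 library per row, by distance of the summit (kb) and MACS fold enrichment (linear, same scale), with the gene in grey. The site 7.11 kb downstream stands in all 10 rows, with fold enrichments from 8.27 to 40.8, and STAT3 is the only factor with a peak at the start of the gene.

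Across the whole region the 905 peaks fell into 191 sites, 89 upstream of the MYC start and 102 downstream. Of these sites, 53 (27.7%) came from 1 list, 46 (24.1%) from at least 8 lists and 14 (7.33%) from all 10. Over the genome these shares were 38.7, 12.9 and 2.23%. Of the 14 sites, 9 lay upstream. By state, 119 sites (62.3%) had a peak in both states, 59 (30.9%) in transformed cells only and 13 (6.81%) in non-transformed cells only. Among the 248897 sites merged in the same way over the genome, these shares were 50.5, 34.6 and 15.0%. All 5 factors had a peak at 17 sites in non-transformed cells and at 50 in transformed cells, with 14 in common. These were 8.90 and 26.2% of the sites of the region, beside 2.41 and 14.8% of the sites of the genome, so both the region and the genome had more such sites in the transformed state. When every list was shortened to the length of the NFKB1 list of non-transformed cells (13252 peaks, the most significant of each list), the counts were 5 and 8. Genome counts at that length are not given here.

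Most of the 36 sites that had all 5 factors in transformed cells only already had AP-1 peaks in non-transformed cells. In non-transformed cells FOS already had a peak at 34 of them, JUN at 32 and JUNB at 28, against 18 for STAT3 and 1 for NFKB1. At 16 of the 36, NFKB1 was the only factor missing. The factors stand in the order of their non-transformed list lengths. These were 119754 peaks for FOS, 81444 for JUN, 75249 for JUNB, 42810 for STAT3 and 13252 for NFKB1. The part of list length and depth in these counts was not tested. Over the genome, 93.4, 77.8, 72.2, 48.6 and 8.75% of 31249 such sites had FOS, JUN, JUNB, STAT3 and NFKB1 before, and at 34.2% NFKB1 was the only factor missing, beside 44.4% in the region.

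The strongest site of the region by fold enrichment summed over the lists lay 441 kb downstream of MYC (chr8:129188919-129189493) and was led by STAT3. STAT3 went from 103 to 137 reads there, with fold enrichments of 50.9 and 70.7, the highest STAT3 values of the region in each state and ranks 182 and 92 of the whole STAT3 lists. The ratio was 1.62 (1.25 to 2.11). The AP-1 proteins and NFKB1 were also strong, with fold enrichments in non-transformed and transformed cells of 22.2 and 30.7 for NFKB1, 37.3 and 31.8 for FOS, 14.6 and 21.6 for JUN, and 18.6 and 31.6 for JUNB. For these 4 factors the intervals of the ratio included 1.

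The upstream end of the region held another STAT3-rich site, 530 kb from MYC (chr8:128218360-128218728). STAT3 went there from 81 to 129 reads and from 37.3 to 66.8 in fold enrichment (ratio 1.94, 1.46 to 2.60). The other factors had fold enrichments of 6.94 to 25.2 at this site in non-transformed and 16.8 to 23.2 in transformed cells, with intervals that included 1. A pair of sites 345 and 335 kb upstream also carried high STAT3 in both states, at 37.8 and 39.5 for the former and 32.9 and 41.3 for the latter. The ratios were 1.19 (0.867 to 1.63) and 1.44 (1.04 to 1.99).

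The largest STAT3 ratios among the 10 strongest sites present in all lists stood at 2 neighbours 236 and 235 kb upstream. STAT3 went from 40 to 81 reads at the former (2.47, 1.67 to 3.70) and from 26 to 54 reads at the latter (2.53, 1.56 to 4.21). JUNB at the latter went from 16 to 54 reads (1.97, 1.11 to 3.68), with the summits of the 2 states 121 bp apart. JUN there had 36 and 34 reads, a ratio of 0.811 (0.493 to 1.33).

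These sites belong to the 10 with the highest summed fold enrichment among the 14 sites present in all lists. Over these 10, STAT3 had the higher normalised pileup in transformed cells at all 10, and at 6 the interval lay above 1. FOS was lower at 9 of the 10, with the interval below 1 at 3: the site past the MYC gene, the site 513 kb upstream (0.693, 0.503 to 0.954) and the site 299 kb downstream (0.688, 0.496 to 0.952). JUN was higher at 9, JUNB at 9 and NFKB1 at 8, and the interval lay above 1 at 1 site each for JUN and JUNB and at none for NFKB1. Over the whole lists, the ratio was above 1 at 81.7% of the shared STAT3 peaks and 44.8% of the shared FOS peaks. For JUN, JUNB and NFKB1 these shares were 73.2, 46.0 and 53.4%. They cover all shared peaks, weak ones included, and not only sites present in all lists. At the site 299 kb downstream fold enrichment was 22.8 and 26.1 for NFKB1, 34.2 and 23.3 for FOS, and 8.24 and 13.3 for STAT3.

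**Figure D3:**
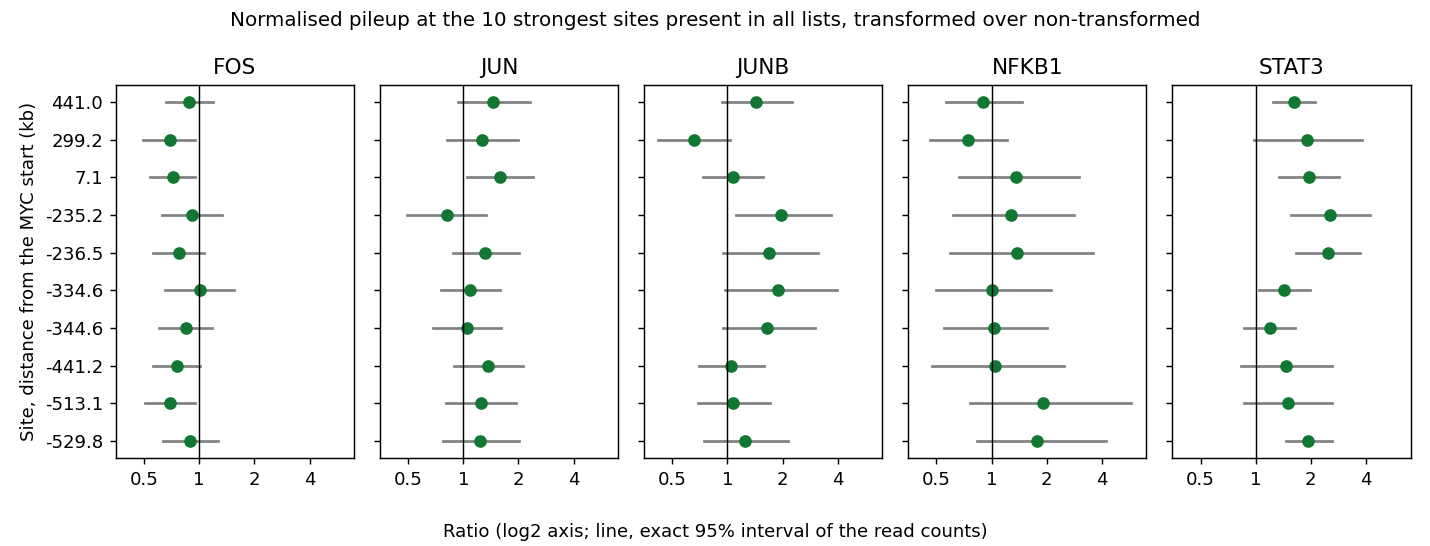
Ratio of normalised pileup, transformed over non-transformed (log2 axis), for each factor at the 10 strongest sites present in all lists, ordered by distance from the MYC start (kb). Points are the ratios and lines their exact 95% intervals from read counts of 1 library per state. STAT3 lies above 1 at all 10 sites (1.19 to 2.53) and FOS between 0.688 and 1.00.

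By fold enrichment, the factors had their highest peaks at different places. FOS in non-transformed cells and JUNB in both states peaked 95.7 kb downstream of MYC, where FOS fold enrichment was 51.4 and 30.4 and JUNB 30.5 and 38.1 in non-transformed and transformed cells. STAT3 there was 5.45 and 13.1, and NFKB1 had a peak in transformed cells only (7.32). In transformed cells the highest FOS peak by fold enrichment was the one 441 kb downstream (31.8). Its normalised pileup was 4.39, and another FOS peak of the region had a higher one (4.53). JUN was highest 74.6 kb upstream in both states (25.2 and 25.6), where FOS had 36.6 and 25.7. NFKB1 was highest 438 kb upstream, with 35 reads and a fold enrichment of 24.9 in non-transformed cells and 68 reads and 35.8 in transformed cells. AP-1 was weaker at that site, with fold enrichments of 11.9 and 15.7 for FOS, 8.99 and 13.3 for JUN, and 6.80 and 10.4 for JUNB.

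At peaks shared by both states, the median ratio of normalised pileup in the region was 1.89 for STAT3 (46 peaks, order-statistic 95% interval 1.57 to 2.38), 1.36 for JUN (68 peaks, 1.23 to 1.56), 1.08 for JUNB (67 peaks, 0.932 to 1.31), 1.04 for NFKB1 (20 peaks, 0.818 to 1.36) and 1.00 for FOS (101 peaks, 0.898 to 1.07). Over the whole lists these medians were 1.68, 1.29, 0.957, 1.00 and 0.937, respectively. The order-statistic intervals describe the spread over neighbouring peaks of 1 pair of libraries. These peaks are not replicates, and the intervals cover no variation between cultures. STAT3 was higher in transformed cells at 42 of its 46 shared peaks (91.3%, beside 81.7% of the shared peaks of its whole list). It was at least 2-fold higher at 17 of the 46, or 37.0%, beside 38.0% of the shared peaks of its whole list. At least 2-fold higher peaks numbered 10 of 68 for JUN (14.6% in the whole list), 8 of 67 for JUNB (7.74%), 4 of 101 for FOS (8.43%) and 0 of 20 for NFKB1 (9.13%). At least 2-fold lower peaks numbered 1 for STAT3 (1.47%), 1 for JUNB (7.47%) and 0 for FOS (6.72%), JUN (1.28%) and NFKB1 (7.06%). The STAT3 peak was the one at the MYC start, where the interval of the ratio included 1. The STAT3 and JUN shares were close to those of their whole lists.

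Transformed-cell peaks without a counterpart in non-transformed cells made up 65 of 85 NFKB1 peaks (76.5%, Wilson 95% interval 66.4 to 84.2%), beside 83.8% of the whole list. For STAT3 they were 44 of 90 (48.9%, 38.8 to 59.0%, beside 61.6%), for JUN 52 of 120 (43.3%, beside 49.3%), for JUNB 39 of 106 (36.8%, beside 44.8%) and for FOS 50 of 151 (33.1%, beside 39.3%). The share was below that of the whole list for every factor, and for STAT3 the interval lay below it. The Wilson intervals here and below treat peaks as independent, although neighbouring peaks share a library and a local background. They describe counting only and are no test of the region against the list. These peaks were weaker than the shared ones, with a median fold enrichment of 5.01 to 7.26 by factor against 11.6 to 15.6.

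Some of them were strong. A STAT3 peak 234 kb downstream of MYC had 71 reads and a fold enrichment of 35.9 in transformed cells and no counterpart in non-transformed cells. FOS, JUN and JUNB had peaks there in non-transformed cells (10.98, 6.33 and 8.59) and higher ones in transformed cells (21.2, 10.4 and 12.2), and NFKB1 had one in transformed cells (7.07). A FOS peak 486 kb upstream had 66 reads and 20.9-fold enrichment, at a site where only JUNB (6.20) had a peak in non-transformed cells and all 5 factors had one in transformed cells. JUNB had new peaks 520 kb (17.6) and 526 kb (14.4) upstream, JUN 297 kb (12.8) and 140 kb (11.1) downstream, FOS also 341 kb downstream (10.98), and NFKB1 67.9 kb upstream (16.4) and 503 kb downstream (15.7). Before transformation the NFKB1 pair of sites had peaks of all 4 other factors. A STAT3 peak 438 kb upstream (18.3) had no other factor at its site in either state, and it overlapped, as a whole peak, a non-transformed STAT3 peak whose summit lay 342 bp away, within the site of the strongest NFKB1 peaks.

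Non-transformed-cell peaks without a counterpart in transformed cells were fewer in the deposited lists. They were 13 of 59 STAT3 peaks (22.03%, beside 29.1% of the whole list), 11 of 78 JUN peaks (14.1%, beside 21.0%), 16 of 116 FOS peaks (13.8%, beside 17.0%), 9 of 78 JUNB peaks (11.5%, 6.19 to 20.5%, beside 25.6%) and 1 of 22 NFKB1 peaks (4.55%, beside 10.7%). The JUNB interval lay below its whole list. With lists of equal length the order turned for JUN (20% of transformed-cell against 23.1% of non-transformed-cell peaks without a counterpart) and STAT3 (30.4 against 36%). It held for NFKB1 (44.4 against 31.8%), FOS (32 against 15%) and JUNB (46.2 against 12.5%). Whole-list shares at that length are not given here, so these values do not set the region apart. Most of the strongest cases sat inside a wider transformed-cell peak with its summit elsewhere. The FOS peaks 442 kb (28.4) and 67.1 kb (26.3) upstream lay under transformed-cell FOS peaks of 1278 and 1271 bp whose summits were 705 and 777 bp away. The STAT3 peak 118 kb downstream (20.1) lay under a transformed-cell STAT3 peak with a fold enrichment of 41.0 and a summit 578 bp away. Counted by whole peaks, 6 of the 16 FOS, 7 of the 13 STAT3, 8 of the 11 JUN and 7 of the 9 JUNB peaks had no counterpart.

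**Figure D4:**
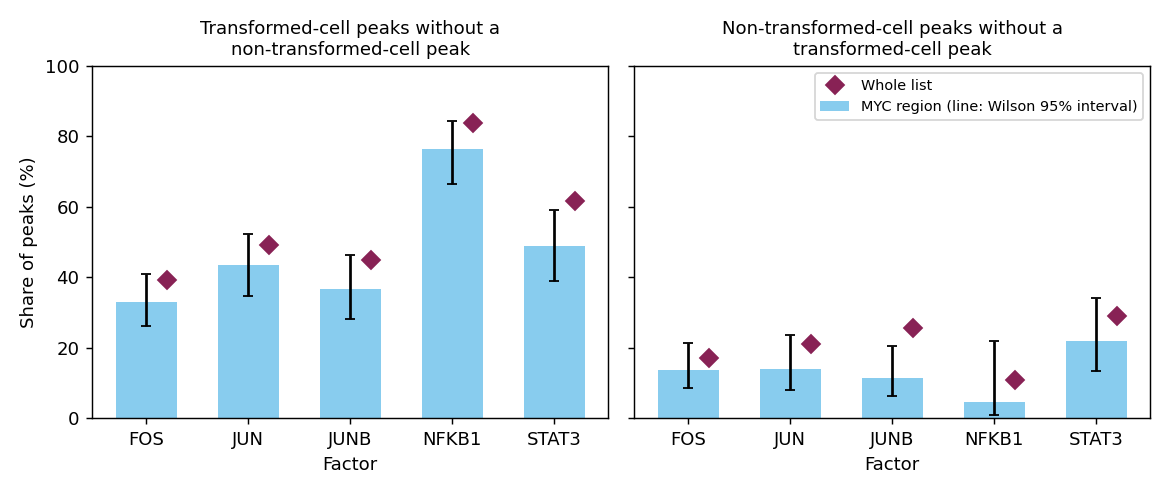
Share of peaks (%, vertical) without a counterpart of the same factor in the other state, for transformed-cell peaks (left) and non-transformed-cell peaks (right). Bars are the MYC region with Wilson 95% intervals as lines, and diamonds are the whole lists. All 10 bars lie below their diamonds, and the interval excludes the diamond for STAT3 on the left and JUNB on the right. The intervals treat neighbouring peaks as independent.

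Most STAT3 and NFKB1 peaks of the region stood on AP-1 sites. For STAT3, 49 of 59 peaks (83.1%) overlapped a FOS, JUN or JUNB window in non-transformed cells and 83 of 90 (92.2%, 84.8 to 96.2%) in transformed cells, beside 80.3 and 87.8% of the whole lists. For NFKB1 the counts were 20 of 22 (90.9%) and 78 of 85 (91.8%), beside 86.0 and 86.1%. In transformed cells, STAT3 peaks with AP-1 had a median fold enrichment of 9.96 and those without had 5.71. STAT3 peaks with NFKB1 went from 18 of 59 (30.5%) to 61 of 90 (67.8%), and NFKB1 peaks with STAT3 from 19 of 22 (86.4%) to 61 of 85 (71.8%). Over the whole lists these shares were 18.9 and 57.1% for STAT3 with NFKB1, and 60.97 and 62.1% for NFKB1 with STAT3. The NFKB1 list was longer and its library deeper in transformed cells.

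Of the 44 STAT3 peaks without a non-transformed counterpart, 28 (63.6%, 48.9 to 76.2%) stood where AP-1 already had a peak in non-transformed cells, beside 62.8% of the whole list. Of the 65 such NFKB1 peaks, 55 did (84.6%, 73.9 to 91.4%), beside 73.5%. The interval for NFKB1 lay just above the share of the whole list (73.9 against 73.5%), and that for STAT3 included it. Neighbouring peaks are not independent, so this is no test of the region.

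The median distance between summits by pair of factors ran from 20.5 to 63.5 bp in non-transformed and from 15 to 32 bp in transformed cells, and it was smallest for FOS with JUNB in each state. Over the whole lists it ran from 17 to 41 bp and from 17 to 31 bp. In non-transformed cells the NFKB1 summits of the region lay farther from those of FOS (63.5 bp, beside 36 bp in the whole lists) and JUN (54.5 bp, beside 35 bp), from 20 and 18 pairs. Across shared sites the rank correlation of fold enrichment ran from 0.482 for JUNB with STAT3 to 0.871 for FOS with JUNB in transformed cells (64 and 97 pairs). In non-transformed cells it ran from -0.010 for JUNB with STAT3 (37 pairs) to 0.804 for FOS with JUNB (72 pairs). These are descriptions across neighbouring sites that share a library and a local background.

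Peaks were not spread evenly with distance from MYC. The densest 50 kb bin lay 550 to 500 kb upstream and held 110 of the 905 peaks (12.2%), although it is cut short by the border of the region. The stretch from 200 to 100 kb upstream was sparse, with 13 and 9 peaks in its 2 bins of 50 kb. The longest stretch without a peak in any list measured 49.0 kb and ran from 394 to 345 kb upstream. Within 10 kb of the gene there were 55.2 sites per 100 kb (14 sites), against 5.77 to 20 in the other distance classes, and their median fold enrichments by list were 5.12 to 9.05.

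NFKB1 had more peaks in transformed cells in every distance class that held any, and its whole list was 5.57 times longer. It went from 14 to 39 peaks more than 200 kb upstream, from 1 to 6 within 10 kb of the gene and from 4 to 20 more than 200 kb downstream. In the stretch 50 to 200 kb downstream of the MYC start, a class singled out after its values were seen, NFKB1 had 1 peak in the non-transformed and 15 in the transformed list, and STAT3 had 9 and 16. The AP-1 proteins were present throughout, with 21 and 24 FOS peaks, 14 and 20 JUN peaks, and 17 and 15 JUNB peaks. No site there had all 5 factors in non-transformed cells, and 8 did in transformed cells. In non-transformed cells NFKB1 had no peak from 7.10 to 175 kb downstream, the longest gap of any list in the region (168 kb). Of its 22 peaks, 16 lay upstream of MYC. In transformed cells 46 of 85 did, and the longest NFKB1 gap ran from 223 to 74.6 kb upstream (148 kb). The depth of the NFKB1 libraries moved with this difference, and its part was not tested.

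Each list was denser in the region than over the genome. Peaks per Mb were 2.53 to 4.58 times those of the whole list, from 2.53 (2.14 to 2.97, exact Poisson interval) for FOS in transformed cells to 4.58 (2.87 to 6.93) for NFKB1 in non-transformed cells. With lists of equal length the range was 3.33 for JUNB in non-transformed cells to 5.62 for NFKB1 in transformed cells, and FOS in transformed cells was at 5.20. Against the 10 Mb on each side, the ratios were 1.64 to 2.01. Among 2767 stretches of 1.1 Mb laid end to end, only 3 to 30 held as many peaks of the same list.

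The local background was raised in the region as well, and not in the region alone. The background that MACS used can be recovered from the pileup and the fold enrichment of each peak. Its median in the region was 1.81 to 2.56 times the genome-wide background of the same library, in all 10 lists, and exceeded the background of 97.6 to 99.5% of all peaks of the list. MACS takes the larger of the genome-wide and the regional background, so this ratio has a floor of 1.00 at every peak. Stretches with a lower regional background therefore also stand at 1.00. In bins of 1 Mb along chromosome 8, the median over lists stayed between 1.00 and 1.28 from the start of the chromosome to 29 Mb upstream of MYC. From 28 Mb upstream to 7 Mb downstream, all 35 bins lay between 1.33 and 2.09, with a median of 1.58. Farther downstream the median was 1.00, but the background did not end sharply at 7 Mb. The bins from 7 to 10 Mb downstream were at 1.15, 1.30 and 1.31, and those from 12 to 14 Mb at 1.36 and 1.44. No input library was used for these lists and copy number was not measured, so more DNA copies and more reads per copy cannot be told apart. The part of the raised background in the density of peaks was not tested. Fold enrichment is relative to this background, and normalised pileup is not. Over the region the background was 1.81 to 2.10 times that of the genome in the non-transformed and 1.98 to 2.56 times in the transformed libraries. For STAT3 it was 1.98 and 2.56 times, the widest step between states. Measured by fold enrichment, the median STAT3 ratio at shared peaks was 1.60, beside 1.52 in the whole list.

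**Figure D5:**
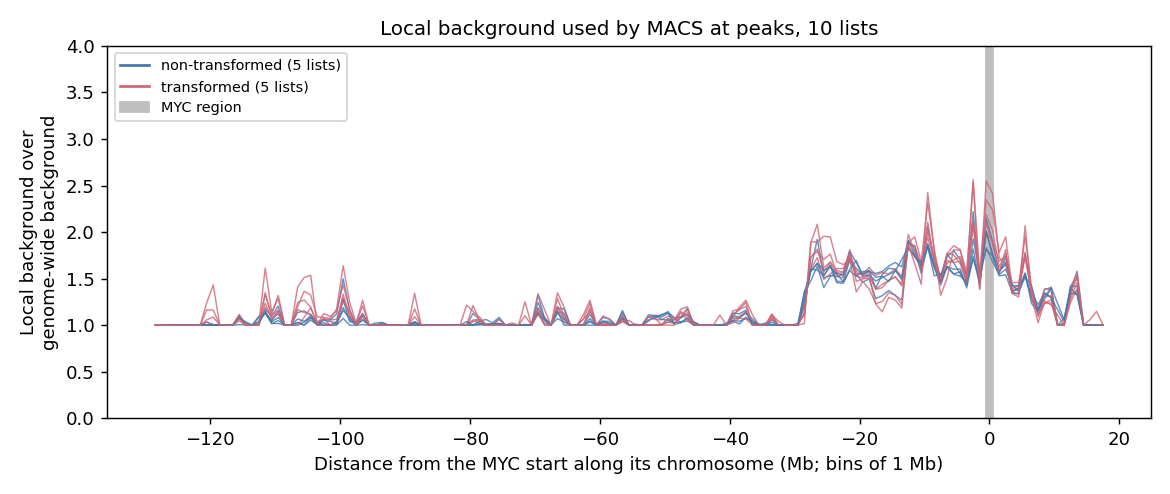
Local background of MACS at peaks over the genome-wide background of the same library (vertical), as medians in bins of 1 Mb, by distance from the MYC start (Mb, horizontal), for 5 non-transformed and 5 transformed lists. All lists step up about 28 Mb upstream of MYC and stay raised over the MYC region (grey), where the medians are 1.81 to 2.56. The ratio has a floor of 1.00, because MACS takes the larger of the genome-wide and the regional background.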

How the data were processed

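ChIP-seq peaks of 5 factors in non-transformed and transformed cells were used, 1 library each, grouped by the labels. Per the labels' processing notes, the authors used Bowtie, MACS2 and build hg19. Per the file headers, the authors called peaks in each library with MACS 2.0.10.20131216, without a control, on reads of 36 bp, keeping 1 read per position, with a regional background of 1000000 bp and a q-value cutoff of 0.05. The deposited pileup is a signal (reads over the summit, not scaled by depth), the deposited fold enrichment is a ratio to the local background, and the deposited −log10 p-values and q-values are those of MACS.

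Peaks on chromosomes 1 to 22 and X entered, by summit. Windows of 150 bp on each side were shared when they overlapped by at least 1 bp. Normalised pileup is pileup per 1000000 filtered reads. Background was (pileup + 1) / fold enrichment − 1, and the genome-wide background was fragment length × reads / 2700000000. Intervals are 95% (Wilson for shares, exact Poisson for counts, exact conditional binomial for ratios) and cover counting error only. The order-statistic interval of a median ratio describes the spread over peaks instead. Python 3.11.15, numpy 2.4.6, pandas 2.3.3 and scipy 1.17.1 were used, and overlap, merging and intervals were tested on simulated data.

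The members, lists and rules were chosen with earlier results of these data known. The text names sites within 10 kb of MYC, the 10 sites in most lists with the highest summed fold enrichment, the nearest and the highest peak of each factor and state, and the 2 highest peaks of each factor without a counterpart. Distance classes were chosen after the values were seen. Motifs and gene annotation of the build hg19 were not used here.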

Additional observations from a re-analysis of the deposited data

How the results depend on the processing

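All lists were shortened to 13252 peaks, or cut to peaks above the median −log10 q-value of 9.41. With lists of equal length, the peak density over the whole list was 4.16 and 5.20 for FOS (non-transformed and transformed), 5.41 and 5.20 for JUN, 5.41 for JUNB and 5.62 for NFKB1 in transformed cells, and 5.20 and 4.79 for STAT3. The share of transformed-cell peaks without a counterpart was 20% for JUN, 44.4% for NFKB1 and 30.4% for STAT3, the reverse share was 31.8% for NFKB1 and 36% for STAT3, and 5 and 8 sites had all 5 factors. With the stricter threshold, density was 3.31 and 2.97 for FOS, 4.02 for JUN in non-transformed and 4.78 for NFKB1 in transformed cells. The share without a counterpart was 24.3% (FOS) and 85.1% (NFKB1) of transformed-cell peaks and 4.76% (JUN), 0% (NFKB1) and 10.3% (STAT3) of non-transformed-cell peaks, 4 and 29 sites had all 5 factors, and AP-1 covered 93.1% of STAT3 peaks in non-transformed cells. Both settings leave fewer peaks by construction.

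Against the 10 Mb flanks, a reference chosen after seeing the data, density was 1.79 and 1.64 for FOS, 1.68 and 1.70 for JUN, 1.72 and 1.68 for JUNB, 1.88 and 1.94 for NFKB1, and 2.01 and 1.83 for STAT3. Whole peaks lowered the share of non-transformed-cell peaks without a counterpart to 5.17% (FOS) and 11.9% (STAT3). Windows of 50 bp raised it to 24.4% (JUNB) and 22.7% (NFKB1) and lowered the AP-1 share of STAT3 peaks to 71.2 and 84.4%. By fold enrichment the median ratio at shared peaks was 0.987 for FOS, which reversed it from 1.00, and 1.495 for NFKB1. Divided by the whole-list median it was 1.07 (FOS), 1.06 (JUN) and 1.13 (STAT3). The cause of these changes was not tested.

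With the read that MACS adds kept in, the region's background over the whole list was 1.49 and 1.63 (FOS), 1.39 and 1.53 (JUN), 1.23 and 1.40 (JUNB), 1.16 and 1.32 (NFKB1), and 1.36 and 1.42 (STAT3). Against chromosome 8 it was 1.43 and 1.55, 1.35 and 1.48, 1.20 and 1.35, 1.13 and 1.28, and 1.33 and 1.36. With that read subtracted, chosen after seeing the data, it was 2.08 and 2.29, 1.90 and 2.16, 1.75 and 1.92, 1.79 and 2.02, and 1.95 and 2.45, in the same order.

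No paired analysis was possible because the results come from no test, with 1 library for each factor and state, and no library was left out for the same reason. Depth limits the weak peaks, and the NFKB1 library of non-transformed cells was the shallowest. Of 118 alternative values, 50 stayed within the interval of the main value and kept their direction.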
